A study of Mus musculus with 2 samples.

Results

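The cells described here are the alveolar type 2 (AT2) cells with the most Scd1 transcripts in 2 droplet single-cell RNA sequencing libraries of sorted mouse lung epithelium. In each library, cells were barcodes with at least 2000 UMIs (unique molecular identifiers, by which captured transcripts are counted), at least 500 detected genes and at most 20% mitochondrial UMIs. AT2 cells were those with at least 15% of their UMIs from Sftpc, the surfactant protein C gene. The 10% of AT2 cells with the highest Scd1 share of UMIs were taken in each library, and are called the top-Scd1 cells below. They numbered 672 of 6719 AT2 cells in the tumor library and 1000 of 9996 in the control library, which makes 1672 of 19152 cells in all. The other 6047 and 8996 AT2 cells are the comparison class.

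Both libraries, called tumor and control, came from wild-type C57BL/6 mice, whose age is not stated in the labels used here. The tumor-bearing mouse was taken at day 14 after 1000000 luciferase-labelled LLC cells (Lewis lung carcinoma, a transplantable mouse lung cancer line) were placed under the skin of the back, and the control mouse was untreated. CD45-, SftpC+ cells were sorted from digested lung to a stated purity above 95%, so the sort and the AT2 rule used the same protein or its transcript. Each group had 1 library, so no difference between the libraries has a replicate check, and mouse, library and tumor cannot be told apart.

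AT2 cells line the alveolus and make pulmonary surfactant, a film of phospholipid and protein that is stored in lamellar bodies before release. The lipid is rich in palmitate-containing phosphatidylcholine, and much of its fatty acid is made in the AT2 cell by the enzymes Acly, Acaca and Fasn and then modified by elongases and desaturases. Scd1 encodes stearoyl-CoA desaturase, which places a double bond in saturated fatty acids. In many tissues its gene is switched on with those of fatty acid and cholesterol synthesis by the SREBP transcription factors, encoded by Srebf1 and Srebf2, which act with the factors NF-Y and Sp1 at promoters.

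Scd1 (ENSMUSG00000037071, chromosome 19, 44394455 to 44407879, minus strand, GRCm38) chose the cells, so its level in them is a description. Summed over cells, it stood at 1197 CPM (the usual unit of UMIs scaled to library size; exact Poisson 95% interval 1170 to 1225) in the top-Scd1 cells of the tumor library and at 302 in the other AT2 cells. In the control library the values were 1829 (1796 to 1862) and 464. A top-Scd1 cell held a median of 10 Scd1 UMIs in the tumor library (lowest 2, highest 52) and 11 in the control library (lowest 3, highest 64). The threshold therefore rested on few molecules per cell. Just inside it in the tumor library lay a cell with 7 Scd1 UMIs of 8749 (800.09 CPM of that cell), and just outside lay one with 5 of 6251 (799.87 CPM). In the control library 3 cells shared the threshold value of 1245.33 CPM, and 1 of them fell outside.

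**Figure D1:**
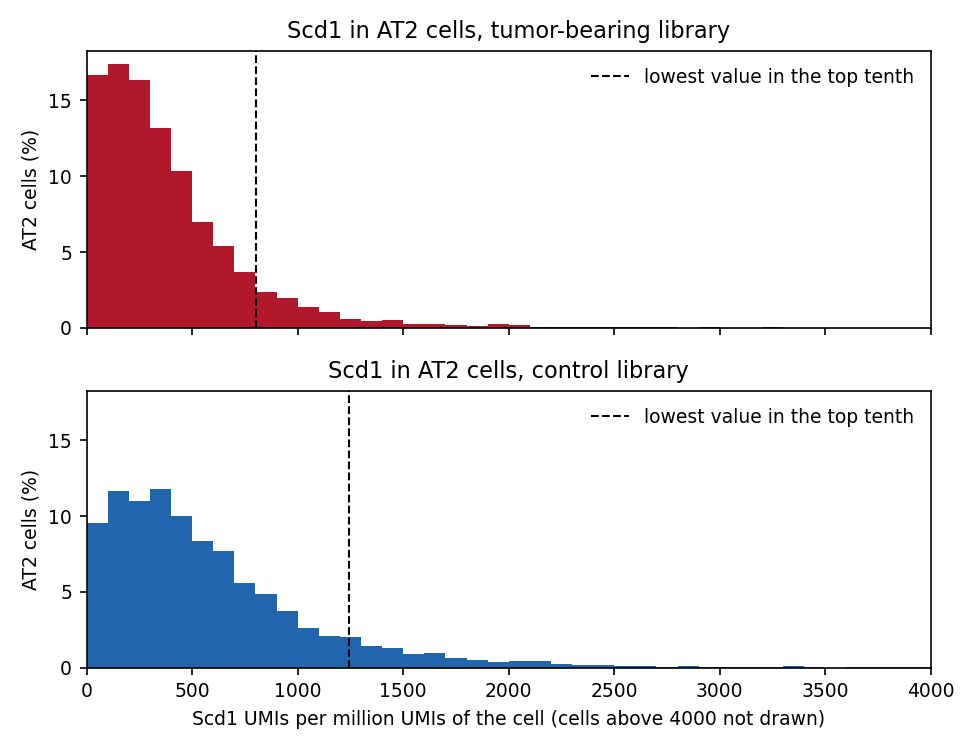
Distribution of Scd1 over AT2 cells. The x axis is Scd1 CPM of the cell, the y axis the percent of AT2 cells in each bin of 100 CPM, with 1 panel per library, and the dashed line is the lowest value in the top 10%. Both distributions fall smoothly through the line, at 800.09 in the tumor and 1245.33 in the control library, with no gap there.

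Ranking cells on a low count picks some of them by sampling alone. To measure Scd1 free of that, each UMI was assigned at random to 1 of 2 equal parts, cells were ranked on the first and measured on the second. The top 10% then held 2.66-fold more Scd1 than the other AT2 cells in the tumor library (95% interval 2.54 to 2.77) and 2.81-fold more in the control library (2.71 to 2.90). On the UMIs that had ranked the cells, the same ratios were 3.96 and 3.95.

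The held-out UMIs also showed that Scd1 varied over the whole AT2 population. AT2 cells were cut into 10 equal classes by Scd1 in the first part. In the tumor library held-out Scd1 was 242 CPM in the lowest class, 292 in class 5, 528 in class 9 and 884 in class 10. In the control library it was 347, 459, 817 and 1416. Class 10 thus lay above class 9 in both libraries, at the end of a graded range.

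**Figure D2:**
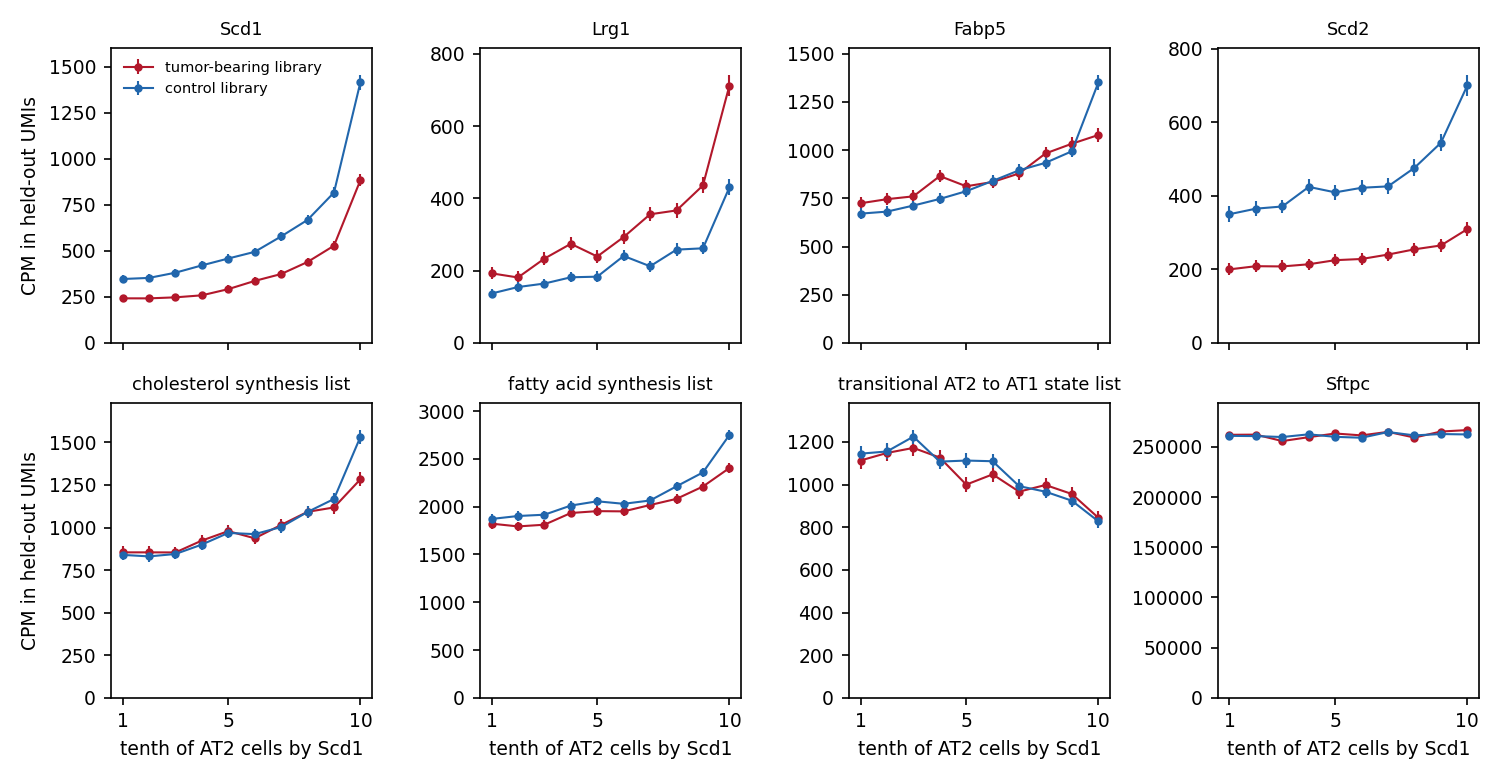
Held-out CPM across the 10 classes of AT2 cells ranked by Scd1. Each panel is a gene or the summed genes of a list, the x axis is the class (10 is the highest in Scd1), the y axis is CPM in UMIs not used for ranking, and bars are exact Poisson 95% intervals. Scd1, Lrg1, Fabp5, Scd2 and both lipid synthesis lists climb with the classes, the transitional list declines, and Sftpc differs by at most 1.02-fold between class 10 and class 1.

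All 10 listed AT2 markers were detected in the top-Scd1 cells. Compared with other AT2 cells, 6 were higher and 3 lower by separate Poisson intervals in both libraries. Their median log2 ratio was 0.08 in the tumor and 0.12 in the control library. Sftpc, on which both classes were selected, took a median of 27.0% of UMIs in the tumor library and 26.4% in the control library. In the other AT2 cells it took 26.6% and 26.4%. Median depth was 8802.5 and 6330 UMIs per cell, beside 9004 and 7009 in the other AT2 cells. Mitochondrial UMIs took a median of 3.38% and 3.77%, beside 3.02% and 3.35%. Summed markers of endothelium, fibroblasts and red cells were lower than in the comparison class. The 8 endothelial markers summed to 139 CPM in top-Scd1 cells and 161 in other AT2 cells of the tumor library, and to 30.4 and 39.3 in the control library. The 10 fibroblast markers summed to 123 and 171 CPM, and to 87.7 and 108. The 5 red cell markers summed to 20.3 and 55.1 CPM, and to 144 and 243. Of these markers, 0 endothelial, 2 fibroblast and 1 red cell gene had at least 20 CPM in both libraries. For the hemoglobin gene Hbb-bs, 10 cells held 29.7% of UMIs in tumor and 64.3% in control top-Scd1 cells. In other AT2 cells they held 51.5% and 49.4%. The 12 macrophage and monocyte markers, which include the AT2 gene Lyz2, summed to 34388 and 33563 CPM, and to 34976.5 and 35415. Across the libraries, 128 cell barcodes occurred in both, none of them (0) among the top-Scd1 cells of both.

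Of the other markers given for this class, 2 of 3 stood higher in top-Scd1 cells in both libraries. Fabp5, a fatty acid binding protein, was at 1176 against 851 CPM in the tumor library and at 1411 against 806 in the control library. Apoc1, an apolipoprotein, was at 376 against 259 and at 503 against 364. Nrn1, a membrane-anchored protein known from neurons, was at 61.7 against 59.2 CPM in the tumor library, where the intervals overlapped, and at 149 against 115 in the control library. Nrn1 thus marked the class in the control library alone by separate intervals. These markers were chosen with results of these data known.

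Across all genes, few differed much between the classes. Of 1701 genes with at least 50 CPM in either class in both libraries, Scd1 left out, 8 were at least 1.5-fold higher in top-Scd1 cells with separate Poisson intervals in both libraries (0.470% of genes), and 3 were lower by the same rule (0.176%). Because the cells were chosen on Scd1 in the same counts, these are descriptions and carry no test. The median log2 ratio over 3839 genes with at least 20 CPM was -0.014 in the tumor and -0.013 in the control library.

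Of the 8 higher genes, 3 make lipids. With cells ranked and measured on separate UMIs, 4 of the 8 (Fdps, Itih4, Lrg1 and Lrp2) passed again. Fasn, Scd2, Hdc and Il33 then fell under 1.5-fold or lost separate intervals in at least 1 library, with held-out folds of 1.47 and 1.58, 1.36 and 1.66, 1.66 and 1.46, and 1.44 and 1.59. Each part held fewer UMIs per cell, so cells were sorted less exactly and intervals were wider for every gene. The share of this in the losses was not tested. Fasn (ENSMUSG00000025153), the fatty acid synthase, was at 310 CPM in top-Scd1 cells and 191 in other AT2 cells of the tumor library, and at 374 and 235 in the control library. The log2 ratios were 0.70 (0.63 to 0.77) and 0.67 (0.61 to 0.73). Scd2 (ENSMUSG00000025203, chromosome 19, 44293674 to 44306864), a second stearoyl-CoA desaturase encoded close to Scd1, was at 346 against 225 CPM and at 735 against 416, log2 ratios of 0.62 and 0.82. Scd1 and Scd2 are close relatives, and how reads matching both were counted is not stated beyond the default settings of the pipeline. Fdps, which makes farnesyl diphosphate for cholesterol, was at 226 against 141 CPM and at 282 against 149, log2 ratios of 0.68 and 0.91. All 3 stood higher in both libraries.

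The other 5 of the 8 genes lie outside lipid synthesis. Lrg1 (ENSMUSG00000037095), a secreted leucine-rich glycoprotein of the acute phase response, was at 773 against 284 CPM in the tumor library and at 435 against 197 in the control library. The folds were 2.72 (2.63 to 2.81) and 2.21 (2.12 to 2.30). Itih4, a secreted inter-alpha-trypsin inhibitor heavy chain, was at 145 against 54.4 and at 123 against 58.9 CPM, log2 ratios of 1.41 and 1.07. These 2 were the only genes that also passed at 2-fold in both libraries. Lrp2, the endocytic receptor megalin, was at 86.4 against 41.9 and at 70.1 against 46.7 CPM. Its log2 ratio of 1.04 in the tumor library lay above that of 0.59 in the control library, with separate intervals of the fold, at unequal Scd1 thresholds. Hdc, which makes histamine, was at 68.5 against 40.7 and at 60.1 against 36.5 CPM. Il33, an epithelial alarmin cytokine, was at 203 against 124 and at 165 against 100 CPM.

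Among the 3 lower genes, Kcnk2, a potassium channel, was at 32.6 CPM in top-Scd1 cells and 58.9 in other AT2 cells of the tumor library, and at 29.3 and 66.5 in the control library. Its log2 ratios were -0.86 (-1.07 to -0.65) and -1.18 (-1.40 to -0.97). Chia1, an acidic chitinase, was at 356 against 549 and at 269 against 429 CPM, log2 ratios of -0.63 and -0.68. On separate UMIs neither passed in both libraries, with held-out folds of 0.691 and 0.525 for Kcnk2 and of 0.685 and 0.658 for Chia1. The third, Cyp2f2, is a club cell gene whose level in top-Scd1 cells was 0.0744 and 0.253 times that in empty droplets, and by the rule for names it is not described further.

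**Figure D3:**
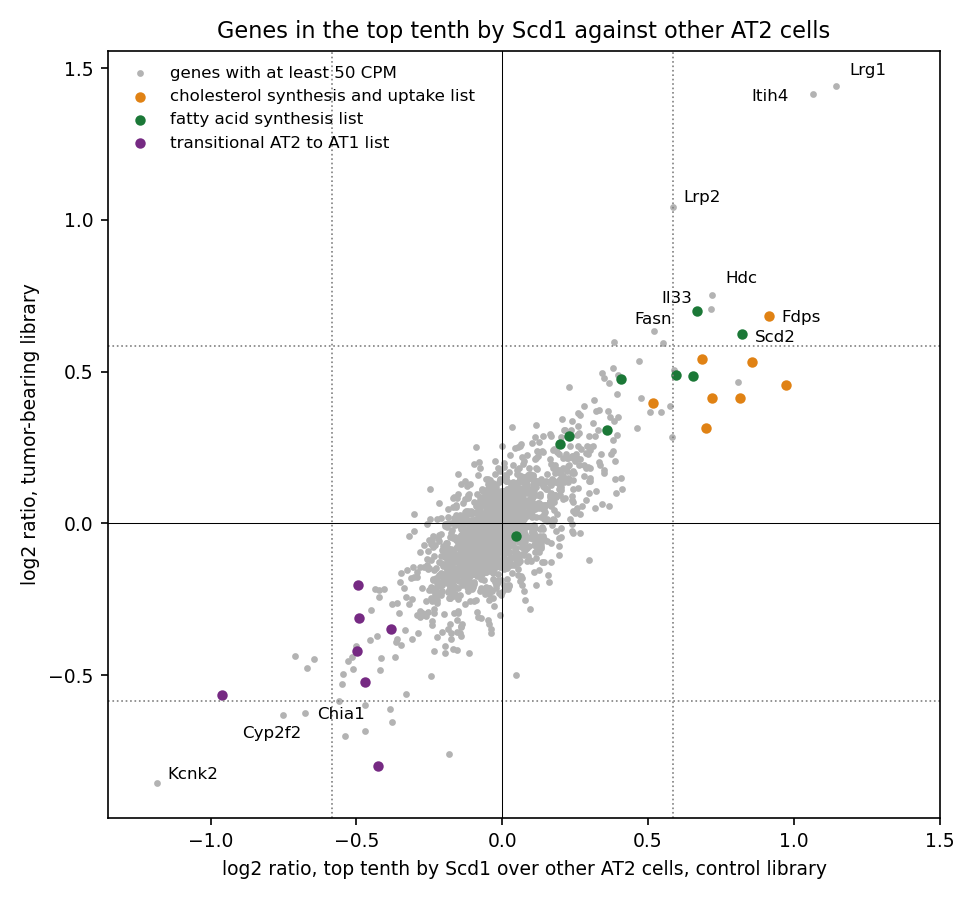
Log2 ratio of each gene in the top 10% of AT2 cells by Scd1 over other AT2 cells, control library on the x axis and tumor library on the y axis, for 1701 genes with at least 50 CPM. Dotted lines mark 1.5-fold, named genes passed in both libraries, and members of 3 lists are coloured. Most genes lie near 0, cholesterol and fatty acid synthesis genes lie upper right, and transitional genes lower left.

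Membership of the top 10% was shared only in part with these genes cell by cell. Of the top-Scd1 cells, 29.6% in the tumor and 21.9% in the control library were also in the top 10% of AT2 cells by Lrg1, where equal classes of 10% are compared. For Fabp5 the shares were 20.5% and 26.6%, for the summed fatty acid synthesis list without Scd1 24.3% and 31.2%, and for the summed cholesterol list 21.1% and 31.3%. For Nrn1 they were 10.7% and 14.0%, for Sftpc 13.1% and 11.6%, and for the transitional list 5.36% and 4.10%. A ranking unrelated to Scd1 would share 10%. The shares for Lrg1, Fabp5 and the 2 lipid lists lay above that, and the tumor interval for Nrn1 (8.48% to 13.3%) held it. Most top-Scd1 cells were still outside the top 10% by any 1 of these. All these rankings read the same cells and depth, and low counts per cell limit the overlap that can be seen.

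Within the top-Scd1 cells some of these genes were graded further. The upper 336 tumor cells by Scd1 held 1502 CPM of Scd1 against 910 in the lower 336, and the upper 500 control cells held 2268 against 1409 in the lower 500. Scd1 cut these classes on the same UMIs, so its own difference is a description, with no held-out measure. Lrg1 was at 923 against 631 CPM and at 499 against 374 in these classes. Fasn was at 353 against 270 CPM and at 394 against 354. Hdc was at 88.0 against 50.2 CPM in the tumor library, and at 63.7 against 56.7 in the control library, where the interval of the ratio held 1. That interval also held 1 for Il33 and Lrp2 in control cells and for Nrn1 in both libraries.

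The fatty acid synthesis and desaturation list held 26 genes besides Scd1, of which 16 had at least 20 CPM. Of these 16, 9 were higher in top-Scd1 cells by separate intervals in both libraries and 0 were lower. Over all 3839 genes at that level the shares were 4.90% higher and 6.02% lower. The list's median log2 ratio was 0.30 in the tumor and 0.34 in the control library, and 0.24 and 0.25 in held-out UMIs.

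The 9 genes spanned the pathway from its carbon supply onward. Slc25a1, which exports citrate from mitochondria, had log2 ratios of 0.45 and 0.35. Acly, which cuts citrate to acetyl-CoA, was at 143 against 102 and at 179 against 119 CPM, log2 ratios of 0.49 and 0.60. Me1, a cytosolic source of NADPH, was at 60.4 against 43.4 and at 56.0 against 42.2 CPM. These 3 genes were thus higher along with Fasn. The elongation enzymes Elovl1, Elovl5 and Hacd3 had log2 ratios of 0.31 and 0.36, 0.26 and 0.20, and 0.29 and 0.23. Fads1, a desaturase of polyunsaturated fatty acids, had 0.49 and 0.65. The genes that did not pass included Acaca, the acetyl-CoA carboxylase that commits carbon to fatty acid, at 26.0 against 23.7 and 36.6 against 29.1 CPM. Tecr, Fads3, Hacd2, Hsd17b12, Acss2 and Thrsp also did not pass, with log2 ratios between -0.38 and 0.35.

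**Figure D4:**
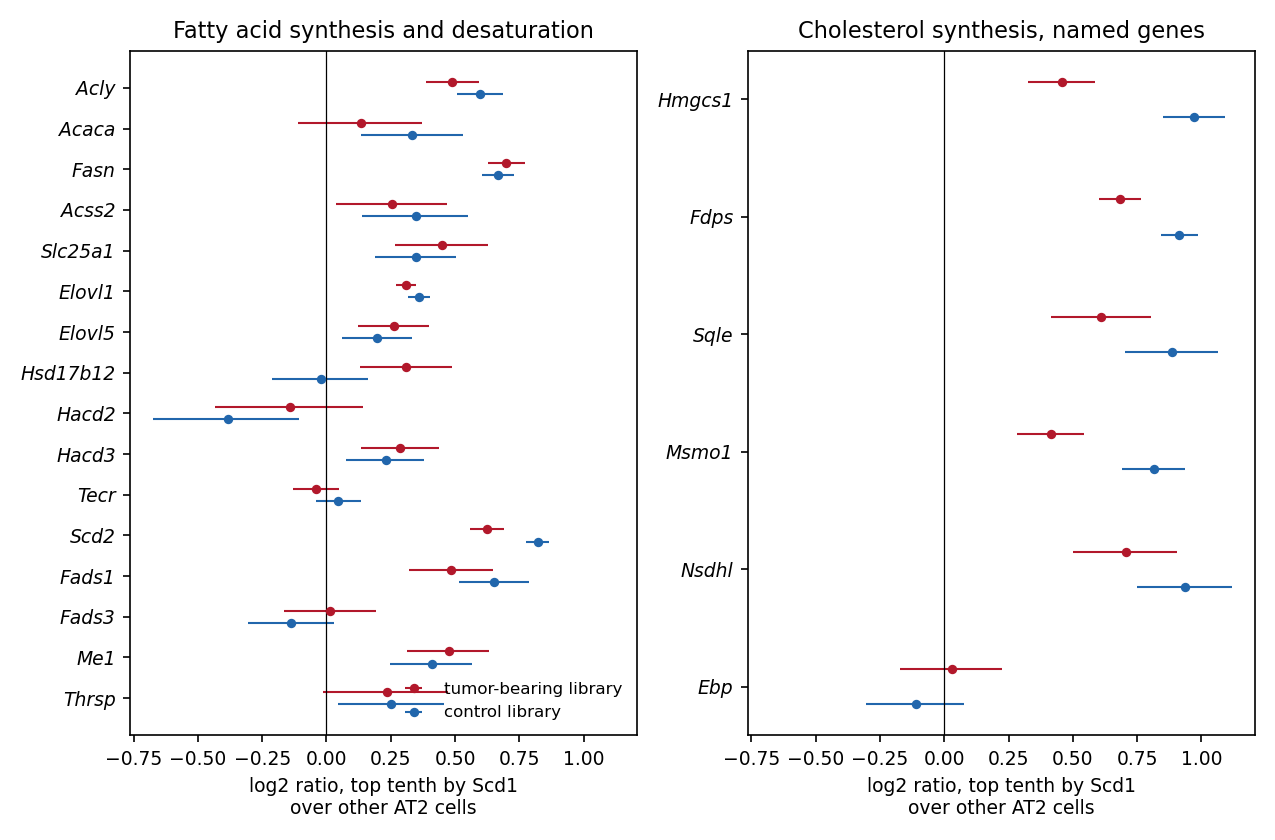
Log2 ratio of the top 10% by Scd1 over other AT2 cells for the measured genes of the fatty acid synthesis list (left) and 6 of the cholesterol genes named in the text (right). Points are libraries (red tumor, blue control) and bars exact conditional binomial 95% intervals for counting error. On the left 14 of 16 genes lie above 0 in the tumor and 13 in the control library. By separate Poisson intervals of the 2 classes, which are not drawn, 9 of the 16 are higher in both libraries. On the right all but Ebp are higher by that rule.

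Nearly every measured cholesterol gene was higher. Of 24 listed genes of cholesterol synthesis and uptake, 18 were measured. Of these, 17 were higher in top-Scd1 cells in both libraries by separate intervals, as were 4.90% of all 3839 genes. Ebp alone did not pass and is named for that reason after its values were seen (log2 ratios of 0.03 and -0.11). The list's median log2 ratio was 0.44 in the tumor and 0.79 in the control library, and 0.36 and 0.68 in held-out UMIs. Summed over the list, the level was 1325 against 951 CPM in the tumor library and 1633 against 954 in the control library.

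Single cholesterol genes followed that order. Hmgcs1, an early enzyme of the mevalonate pathway, was at 89.2 against 65.0 CPM in the tumor library and at 105 against 53.8 in the control library, log2 ratios of 0.46 (0.32 to 0.59) and 0.97 (0.85 to 1.09). Msmo1, a sterol demethylase, had 0.41 (0.28 to 0.54) and 0.81 (0.69 to 0.94). For both genes the intervals of the 2 libraries were separate, as they were for 130 of the 1701 genes (7.64%). The classes were cut at different Scd1 levels in the 2 libraries, and the part of this in such differences was not tested. With 1 threshold for both, the tumor log2 ratio of Hmgcs1 was 0.72 and the tumor list median 0.62. Over all settings tried, the control ratio of Hmgcs1 lay between 0.79 and 1.14. Sqle, the squalene epoxidase, was at 41.7 against 27.3 and at 45.4 against 24.5 CPM. Nsdhl, which acts later on the sterol ring, had log2 ratios of 0.71 and 0.94. Insig1, which holds SREBP back in the endoplasmic reticulum and is itself a target of it, was at 70.5 against 53.0 and at 109 against 66.2 CPM.

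The upstream 250 bases of Fasn and Hmgcs1 are shown as examples from the fatty acid and cholesterol lists, picked because they carry letters searched for. Scd1 and Fdps had no matched promoter. Of the letters searched for, the Fasn stretch holds CCAAT only. They are from RefSeq on build GRCm38.p6, end 1 base before the annotated start, and run 5′ to 3′ on the gene's own strand. Capitals mark CCAAT or its reverse complement ATTGG, the core bound by NF-Y, and the sterol response element TCACNCCAC.
Fasn, chr11:120824548-120824797, minus strand: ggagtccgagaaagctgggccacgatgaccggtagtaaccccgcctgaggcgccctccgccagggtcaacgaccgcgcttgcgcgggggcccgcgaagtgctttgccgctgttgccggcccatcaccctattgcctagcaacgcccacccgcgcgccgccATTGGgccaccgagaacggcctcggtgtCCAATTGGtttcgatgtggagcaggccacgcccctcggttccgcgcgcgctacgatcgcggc
Hmgcs1, chr13:119690101-119690350, plus strand: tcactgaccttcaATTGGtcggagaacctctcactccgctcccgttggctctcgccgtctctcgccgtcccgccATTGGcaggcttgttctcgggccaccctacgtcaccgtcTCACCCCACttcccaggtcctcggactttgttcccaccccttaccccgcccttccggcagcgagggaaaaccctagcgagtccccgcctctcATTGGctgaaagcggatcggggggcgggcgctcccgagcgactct
On either strand, CCAAT occurred in 15 of 19 promoters of the cholesterol list (78.9%) and in 13 of 26 of the fatty acid list (50%), beside 33.8% of all 32851 RefSeq mouse promoters. The Sp1 core GGGCGG occurred in 84.2% and 57.7%, beside 32.7% of all. TCACNCCAC occurred in 1 promoter of the cholesterol list, that of Hmgcs1, in 0 of 26 of the fatty acid list and in 1.05% of all. CACGTG, also searched for, occurred in 21.1% and 11.5%, beside 6.02% of all. Of the 8 genes called higher in both libraries, 6 had matched promoters, 7 in number. CCAAT occurred in 3 of these 7 (42.9%), GGGCGG in 2 (28.6%), and TCACNCCAC and CACGTG in 0. Promoters were matched for 16 of 24 cholesterol genes and 22 of 26 fatty acid genes, some with more than 1 start. A match describes letters in the sequence, and no binding was measured.

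Regulators of lipid synthesis differed less than the enzymes. Of 13 measured regulators, 2 were higher and 1 lower in both libraries, beside 4.90% and 6.02% of all 3839 genes. Besides Insig1, Mid1ip1, which activates acetyl-CoA carboxylase, was at 480 against 360 and at 613 against 441 CPM. Cebpa, an AT2 and adipocyte transcription factor, was lower, at 215 against 231 and at 235 against 252 CPM. Srebf1 was at 48.4 against 43.0 CPM in the tumor library, with overlapping intervals, and at 84.0 against 62.1 in the control library. Srebf2 was at 50.4 against 45.4 and at 61.2 against 46.1 CPM, again separate in the control library only. Of 8 measured NADPH genes, Me1, Idh1 and Tkt were higher in both libraries, the last 2 with log2 ratios of 0.30 and 0.54 and of 0.25 and 0.29.

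Handling of fatty acids beyond synthesis was higher in part. Of 6 measured genes of uptake, binding and activation, 4 were higher in both libraries. Dbi, the acyl-CoA binding protein, was at 843 against 543 CPM and at 636 against 444, log2 ratios of 0.63 and 0.52. Fabp5 was the second, and Acsl4 and Acsl5, which attach CoA to fatty acids, had log2 ratios of 0.37 and 0.33 and of 0.18 and 0.18. Cd36, a fatty acid uptake receptor, was not called (log2 ratios of -0.06 and -0.05). Among 14 measured phospholipid synthesis genes, Pcyt2 and Lpcat1 were higher, with log2 ratios of 0.37 and 0.54 and of 0.29 and 0.39. Prdx6, which also degrades phospholipid, was the 1 lower, with -0.14 and -0.20, and is named after its values were seen. Lpcat1 is the acyltransferase that AT2 cells use to remodel surfactant phosphatidylcholine. Of 7 lipid droplet genes only Soat1, which esterifies cholesterol, passed (0.25 and 0.27), and the droplet coat gene Plin2 did not (0.18 and 0.13). Of 18 measured fatty acid oxidation genes, 0 were higher and 2, Hadh and Etfa, were lower. The oxidation list had medians of 0.06 and -0.07. These counts stand beside 4.90% of all genes higher and 6.02% lower by the same rule.

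Genes of the surfactant system split. Of 16 measured genes of surfactant proteins and the lamellar body, 7 were higher and 6 lower in both libraries, and the list's median was 0.02 and 0.00. Over all 3839 genes the shares by the same rule were 4.90% higher and 6.02% lower. Genes with many UMIs, such as Sftpc, pass this rule at small differences. Abca3, which pumps phospholipid into the lamellar body, was at 452 against 354 and at 454 against 351 CPM. Slc34a2, a phosphate transporter, was at 2561 against 1981 and at 2769 against 2152 CPM. Npc2, a sterol carrier of the lysosome, was at 5898 against 4581 and at 5155 against 4304 CPM, and Lamp3, a lamellar body membrane protein, had log2 ratios of 0.26 in both. Sftpc, Lpcat1 and Sfta2 were also higher. For Sftpc, on which the AT2 rule selects, the difference was small. Its held-out level in class 10 over class 1 of Scd1 was 1.018 in the tumor and 1.005 in the control library. Among the lower ones, Ctsc and Ctsh, lysosomal proteases, had log2 ratios of -0.28 and -0.23 and of -0.21 and -0.34. The surfactant proteins Sftpd and Sftpa1 had -0.17 and -0.20 and -0.15 and -0.17. The proteases and surfactant proteins were joined by Napsa and Lamp1. Except for Abca3, Slc34a2, Npc2, Lamp3 and Lpcat1, these genes fall outside the rule for names and were chosen after their values were seen. Of 15 AT2 secreted and state genes, 9 were higher and 0 lower in both libraries. These included Lcn2, an iron-sequestering acute phase protein, at 1113 against 780 and at 765 against 588 CPM, and Cxcl15, a lung chemokine, at 4459 against 3527 and at 2911 against 2463 CPM.

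Genes of the shift from AT2 to AT1 cells were lower. Of 8 measured genes of the transitional state, 7 were lower in top-Scd1 cells in both libraries and 0 were higher, with list medians of -0.46 and -0.48 and of -0.34 and -0.37 in held-out UMIs. Over all 3839 genes the shares were 6.02% lower and 4.90% higher. Summed over the list, top-Scd1 and other AT2 cells held 784 and 1059 CPM in the tumor library, and 793 and 1084 in the control library. Empty droplets held more, at 1133 and 1244 CPM. Krt18, a keratin, was at 181 against 260 CPM in the tumor and 192 against 267 in the control library. Areg, a ligand of the EGF receptor, was at 88.3 against 131 CPM and at 37.3 against 72.6. Hbegf, another of its ligands, was at 40.4 against 70.3 CPM and at 38.3 against 51.5. Krt7 was also lower, and its level in top-Scd1 cells was under 0.5 times that in empty droplets in at least 1 library. Of 5 measured AT1 markers, 4 were lower, with medians of -0.30 and -0.29. Summed, the AT1 list stood at 2566 against 2851 CPM in the tumor library and at 2380.5 against 2676 in the control library. Empty droplets again held more, at 3156 and 3576 CPM, and the part of free RNA in these differences was not tested. Aqp5, the AT1 water channel, was at 232 against 286 and at 251 against 307 CPM, while Hopx, also lower, was under the same free RNA limit as Krt7.

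Of 17 measured immediate early genes, 11 were lower and 0 higher, with medians of -0.25 in the tumor and -0.15 in the control library, and of -0.16 and -0.07 in held-out UMIs. Junb was at 535 against 790 CPM and at 528 against 664. Klf6 was at 96.5 against 132 and at 65.0 against 93.7 CPM. Of 9 heat shock genes, 6 were lower and 0 higher. Hspb1, a small chaperone, was at 69.7 against 94.9 and at 72.4 against 113 CPM, and Dnajb1, which works with Hsp70, was at 56.6 against 86.6 and at 44.9 against 58.6 CPM. Of 17 measured genes of endoplasmic reticulum chaperones and stress, 1 was higher and 0 lower, with medians of -0.02 and -0.03. Of 7 measured MHC class II genes, 2 were lower and 0 higher, with medians of -0.05 and -0.11, and of 0.02 and -0.09 in held-out UMIs. Over all 3839 genes, 4.90% were higher and 6.02% lower by the same rule. Summed, immediate early genes stood at 5309 against 6563 CPM and at 5111 against 5440, with 7140 and 6527 in empty droplets. Heat shock genes summed to 2130 against 2399 CPM and to 2099 against 2350, with 2637 and 2648 in empty droplets. The parts that free RNA and digestion and sorting of the tissue play in these stress genes were not tested.

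The top 10% of AT2 cells was set at different Scd1 levels in the 2 libraries, since Scd1 itself was lower in the tumor library. At the tumor threshold, 24.4% of control AT2 cells were at or above it (exact 95% interval 23.5 to 25.2). At the control threshold, 3.02% of tumor AT2 cells were (2.63 to 3.46). With every cell thinned to 2000 UMIs, 6.62% of tumor AT2 cells had at least 3 Scd1 UMIs and 14.1% of control AT2 cells did, at unthinned shares of 52.0% and 59.8% and median depths of 8982 and 6941 UMIs. No AT2 cell was too shallow for this. Among cells below the Sftpc minimum the thinned shares were 0.622% and 1.82%, at median depths of 4906 and 5439 UMIs. Scd1 in empty droplets was 300 and 551 CPM.

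Within top-Scd1 cells, 10 of 1795 genes that reached 50 CPM in 1 of the libraries were at least 2-fold higher in the tumor library with separate intervals (0.557%), and 5 were lower (0.279%). In other AT2 cells the shares were 0.390% and 0.167%. These rest on 1 library each and carry no test. The median log2 ratio over genes with at least 20 CPM was -0.042 in top-Scd1 cells and -0.044 in other AT2 cells.

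Retnla, a secreted resistin-like protein, was at 80.8 CPM in tumor and 20.2 in control top-Scd1 cells, and at 25.1 and 14.6 in other AT2 cells. It was carried by few cells, and 10 cells held 54.0% of its UMIs in tumor and 55.3% in control top-Scd1 cells. Acot1, an acyl-CoA thioesterase under PPAR control, was at 122 against 45.5 CPM in top-Scd1 cells and at 117 against 44.2 in the others. Acadl, which starts oxidation of long-chain fatty acids, was at 100.1 against 44.9 CPM and at 99.2 against 53.3. The log2 ratios in top-Scd1 and other AT2 cells were 1.42 and 1.40 for Acot1 and 1.16 and 0.90 for Acadl. Areg was higher as well, at 88.3 against 37.3 CPM in top-Scd1 cells and 131 against 72.6 in the others.

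Of the remaining higher genes, Ifitm3, Ly6c1, Ly6a and Cxcl1 had log2 ratios of 1.54, 1.22, 1.21 and 1.12, and each was under 0.5 times its empty droplet level in at least 1 library. Scgb1a1, the club cell secretoglobin, was at 5833 CPM in tumor top-Scd1 cells while empty droplets held 114315. With droplets that held transcripts of other cell types left out, Ifitm3, Ly6c1 and Ly6a had log2 ratios of 0.86, 0.69 and 0.16 and were no longer called. The 4 measured endothelial markers had a median log2 ratio of 3.08 between the libraries in top-Scd1 cells and 2.62 in the others. The part of free RNA in these levels was not tested. Dbp, a clock output gene, completes the 10 and lies outside the rule for names.

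The lower genes included the desaturase Scd2 and the marker Nrn1. Scd2 was at 346 CPM in tumor and 735 in control top-Scd1 cells (log2 ratio -1.09, -1.16 to -1.01), and at 225 and 416 in other AT2 cells (-0.89). Nrn1 was at 61.7 against 149 CPM (-1.27) and at 59.2 against 115 in the others (-0.96). Vpreb3, named for a B cell receptor component, was at 43.2 against 110 CPM and at 44.6 against 95.6. Gsta3 and Hbb-bs, the last a red cell hemoglobin, were under 0.5 times their empty droplet levels.

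Some lipid synthesis genes were lower in tumor top-Scd1 cells. Of 15 measured fatty acid genes, 5 were lower and 1 higher by separate intervals, where 9.11% of 4073 genes at 20 CPM were lower and 5.92% higher. The list's median log2 ratio was -0.05 in top-Scd1 cells and -0.20 in the others. Elovl1 was the higher one, at 969 against 761 CPM. Of 18 cholesterol genes, 6 were lower and 0 higher, with a median of -0.24 in top-Scd1 cells and 0.04 in other AT2 cells. Srebf1 was at 48.4 against 84.0 CPM (-0.80) and at 43.0 against 62.1 in the others (-0.53). Of 20 fatty acid oxidation genes, 13 were higher and 2 lower, with a median of 0.42, and 0.28 in the others. The differences between the 2 classes were not tested.

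The unequal Scd1 minimum enters these values. With 1 threshold for both libraries, 308 tumor and 1364 control cells were kept, and Scd1 differed by -0.08 between them on the log2 scale in place of -0.61. Fasn then changed direction, from -0.27 to 0.04, and the cholesterol list's median moved from -0.24 to 0.07. Scd2 stayed lower at -0.84, Srebf1 at -0.59 and Nrn1 at -1.04. Acot1, Acadl and Retnla stayed higher, at 1.43, 1.12 and 3.07.

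**Figure D5:**
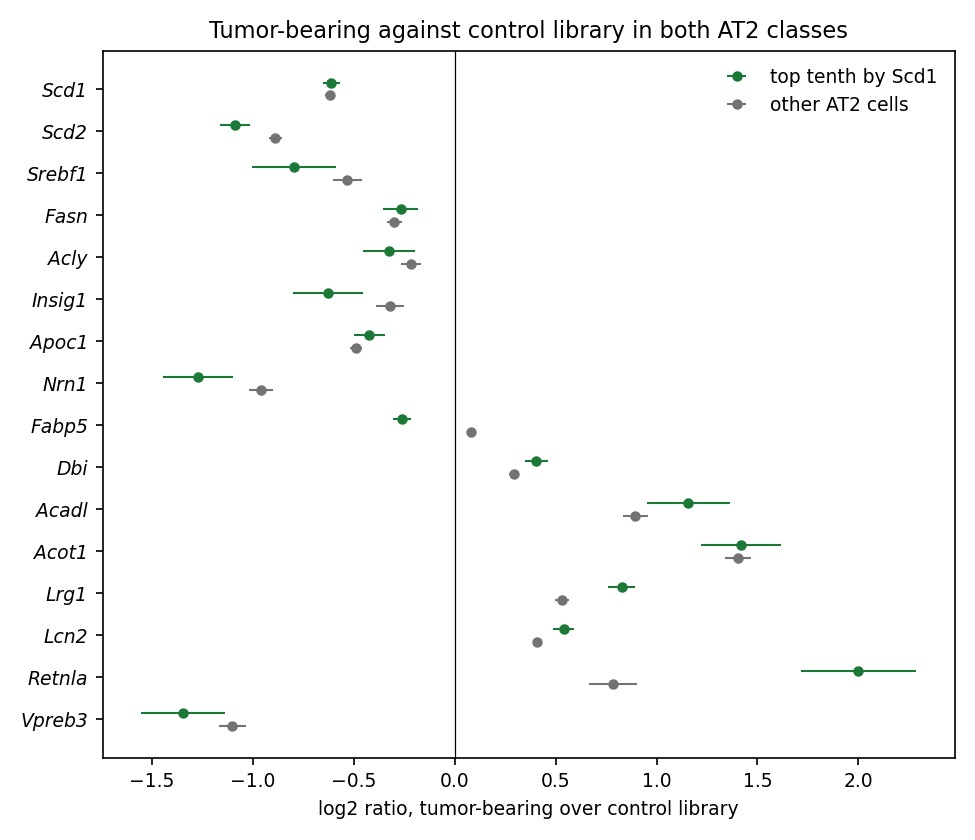
Log2 ratio of the tumor-bearing over the control library for 16 genes in the top 10% of AT2 cells by Scd1 (green) and in other AT2 cells (grey). Bars are exact conditional binomial 95% intervals for counting error in 1 library per group. Scd1, Scd2, Srebf1 and Nrn1 lie left of 0 and Acot1, Acadl and Retnla right of it in both classes, while Fabp5 is at -0.26 in green and 0.08 in grey.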

How the data were processed

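The authors deposited raw UMI count matrices (28692 genes by 737280 barcodes per library), made with Cell Ranger 2.1.0 on mm10, per the labels and the series' design text; R 3.5.3 is named in the submitters' processing notes. From these counts, CPM were computed on summed cells with exact Poisson intervals and exact conditional binomial intervals of ratios (95%, counting error only) in numpy 2.4.6, scipy 1.17.1 and pandas 2.3.3. UMIs in PCR-amplified libraries are not otherwise corrected here. Libraries held 84448360 (tumor) and 91498124 (control) UMIs. No test was run, since each group has 1 library. Doublets were not removed, as Scrublet in scanpy 1.11.5 marked 0 cells at its automatic threshold, which does not show that none were present. In an alternative, the highest scores marked 533 tumor and 966 control cells. These were 5.21% of top-Scd1 and 6.96% of other AT2 cells in the tumor library, and 4.40% and 9.67% in the control library. With them removed, the same 8 genes were higher in top-Scd1 cells, and the 3 lower genes became 4. Members and gene lists were chosen with earlier results of these data known. Named genes were the 4 markers, up to 12 called genes per direction, every measured member of 4 lipid lists, up to 4 of each other list, up to 8 per direction between libraries and up to 6 whose ratios differed between libraries, leaving out called genes under 0.5 times the level of empty droplets (1 to 100 UMIs). Scripts were tested on simulated data. Gene positions are from GENCODE vM21 and promoters from RefSeq. Some single genes of the lists are not reported here.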

Additional observations from a re-analysis of the deposited data

Results flagged for a closer look

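In 5 cases the libraries lay on opposite sides of no difference between AT2 cells high and low in Scd1 with both 95% intervals clear of it, among the named genes and the features followed over the 10 Scd1 classes. Others with opposite signs had an interval that held no difference in at least 1 library. The difference between libraries was not tested in any of them. Lyz2, a lysozyme of AT2 cells and macrophages, had log2 ratios of top-Scd1 over other AT2 cells of 0.0352 in tumor and -0.0180 in control cells. Scgb1a1 had -0.13 and 0.14, at levels under 0.5 times those of empty droplets. In held-out UMIs, Retnla in the highest 10% by Scd1 was 2.38 times its level in the lowest 10% in tumor cells and 0.501 times in control cells, and few cells carried it. MHC class II transcripts had ratios of 1.04 and 0.941, and the surfactant and lamellar body list had 1.02 and 0.995.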

How the results depend on the processing

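No paired analysis was possible because each group has 1 library. The 8 genes higher in top-Scd1 cells became 19 with the top 5% of cells, 2 with the top 20%, 2 when ranked after thinning, 4 on separate UMI sets, 33 with no CPM minimum, 39 at a looser fold minimum and 2 at 2-fold; Lrg1 and Itih4 were the 2 in each case. The 3 lower genes became 9, 1, 1, 1, 32, 33 and 0 under these settings, 7 with an Sftpc minimum of 10% and 6 at 20 CPM. The 10 genes higher in tumor cells became 6 with the top 5%, 6 with the top 20%, 29 at 20 CPM and 145 with no minimum, and the 5 lower ones 8 with the top 5%, 11 at 20 CPM and 57 with no minimum. Held-out Scd1 folds were 3.28 and 3.29 with the top 5%, 2.27 and 2.36 with the top 20%, and 3.35 and 2.59 with 1 threshold. The 1 lower gene on separate UMI sets was none of the 3. Among called genes, directions reversed for Retnla in control cells with the top 20% (-0.0025), Fasn between libraries at 1 threshold (0.0431), and after thinning for Etfa in tumor (0.0272), Klf5 (0.0582) and Hbb-bs (0.185) in control cells, the last also without droplets of other cell types (0.161). Values not called also turned, among them Scgb1a1 in control cells with an Sftpc minimum of 10% (-0.07), Lpcat3 in tumor cells on separate UMI sets (-0.49), and there the tumor medians of MHC class II (0.02) and fatty acid oxidation (-0.01). The cause was not tested.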
